A study of Mus musculus with 20 samples.

Results

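Iron enters most brain cells as iron-loaded transferrin, is stored in ferritin and leaves through ferroportin. The 10 genes described here encode these proteins and their regulators: Trf, Tfrc, Steap3 and Slc11a2 for uptake, Fth1 and Ftl1 for storage, Slc40a1 and Heph for export, and Aco1 and Ireb2 for iron sensing. They were chosen by symbol, and all 10 were found once each among the 55487 symbols of the prefrontal cortex table and, through their Ensembl identifiers, among the 57180 genes of the hippocampal table. All 10 passed the filter on low counts in both tissues, in which 17760 and 18873 genes were tested.

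The mice were wild-type animals of the inbred strain C57/BL6, 2 to 6 months old, and messenger RNA was sequenced from poly(A)-selected libraries. Males received lipopolysaccharide (LPS), a component of bacterial cell walls used to provoke systemic inflammation, into the peritoneum at 5 mg/kg (n = 4) or 0.9% saline (n = 4), and prefrontal cortex was collected 24 hours later. In a second batch, hippocampus was collected 24 hours after 0.2 mg/kg of nicotine, which activates nicotinic acetylcholine receptors (n = 6), or after saline (n = 6). The tissues came as separate batches and separate count tables, so their levels are given side by side and were not tested against each other.

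Prefrontal cortex libraries held 39871000 to 42924749 gene counts with LPS and 36371084 to 46106526 with saline, and hippocampal libraries held 53145736 to 62982229 with nicotine and 51969343 to 68196280 with saline. In 4 of 8 prefrontal cortex records (libraries 2L, 4L, 6L and 8L) the treatment given by the title and treatment field was not the one in the column name, and the column name set the group. Levels are CPM, in which counts are scaled for library size with TMM factors. The inflammation marker Lcn2 (lipocalin 2) had 253.9 to 366.6 CPM in the LPS columns and 0.676 to 13.5 CPM in the saline columns. Grouped by title, 0 genes passed edgeR's quasi-likelihood test at an adjusted p of 0.05 and 201 had an unadjusted p under 0.05, and 0 of the 10 iron genes passed. Striatal marker genes summed to 666.1 to 2633 CPM with LPS and 553.5 to 1995 CPM with saline. With these markers as a covariate, 3 iron genes were higher and 4 were lower with LPS, as without them. Of all 17760 genes tested, 3824 were higher and 3554 were lower in that fit. In hippocampus, 4 libraries (2N, 5N, 10N and 11N) stood above 1000 CPM of Ttr, a gene of the choroid plexus.

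Cells match uptake to storage through iron regulatory proteins 1 and 2, the products of Aco1 and Ireb2. When iron is scarce these proteins bind hairpins called iron-responsive elements in the untranslated regions (UTRs) of messenger RNAs. Bound before the coding sequence, as in ferritin and ferroportin messages, they block translation, and bound after it, as in the transferrin receptor message, they protect the RNA from decay. Inflammation adds a further layer, since hepcidin, the hormone encoded by Hamp, causes ferroportin protein to be degraded, and cytokines raise storage and hold iron inside macrophages and microglia. Only messenger RNA levels were measured here.

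The sequences of these hairpins are shown because they are the known binding sites of the iron regulatory proteins. The annotated UTRs of all protein-coding transcripts of the 10 genes were searched on the transcript's strand for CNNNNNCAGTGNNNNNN, with the 5 bases on either side of the 6-base loop CAGTGN able to pair, G with T included. In the lines below, capitals mark the unpaired C and the loop, 5 bases of flank are kept on each side, T stands for U, and positions are on build mm10.
Tfrc 3′ UTR, chr16:32631220-32631246, plus strand: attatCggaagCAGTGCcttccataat
Tfrc 3′ UTR, chr16:32631599-32631625, plus strand: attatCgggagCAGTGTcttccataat
Tfrc 3′ UTR, chr16:32631664-32631690, plus strand: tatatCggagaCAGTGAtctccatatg
Tfrc 3′ UTR, chr16:32631711-32631737, plus strand: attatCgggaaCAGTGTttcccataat
Fth1 5′ UTR, chr19:9982733-9982759, plus strand: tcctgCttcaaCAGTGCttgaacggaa
Ftl1 5′ UTR, chr7:45459780-45459806, minus strand: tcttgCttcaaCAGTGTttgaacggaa
Slc40a1 5′ UTR, chr1:45925466-45925492, minus strand: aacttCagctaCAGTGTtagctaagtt

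Tfrc held 4 such elements, and Fth1, Ftl1 and Slc40a1 held 1 each. The ferritin pair shared 25 of 27 bases, while the ferroportin element shared 13 of 27 with either ferritin element. The 4 Tfrc elements shared 17 to 25 of 27 bases with each other. The Tfrc elements were in 1 of 3 annotated coding transcripts, the Fth1 element in 4 of 5, the Ftl1 element in 1 of 2 and the Slc40a1 element in 1 of 4. Slc11a2, whose message is known to carry a less regular element in one of its 3′ ends, had no stretch with these letters and full pairing, nor had Trf, Steap3, Heph, Aco1 or Ireb2. Over all genes with an annotated UTR long enough, 0.151% (31 of 20580) had a match in a 5′ UTR and 0.615% (129 of 20978) in a 3′ UTR. A match describes the letters and is not a test of binding.

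With LPS, most of the iron genes changed in prefrontal cortex, in both directions. Tfrc, Slc11a2 and Fth1 rose, while Slc40a1, Steap3, Trf and Ftl1 fell. Heph, Aco1 and Ireb2 did not pass the test. Of 10 iron genes, 7 passed an adjusted p of 0.05 in edgeR's quasi-likelihood test, 3 higher and 4 lower. The background was high, since 41.2% of all genes tested passed (21.5% higher and 19.7% lower). The LPS and saline libraries did not overlap for 7 of the 10 genes, against 37.1% of all genes tested. The 10 genes were chosen with earlier results of these data known, so their excess over these shares is not an independent result. The median log2 fold change of the 10 genes was 0.06, and that of all genes tested was 0.01.

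**Figure D1:**
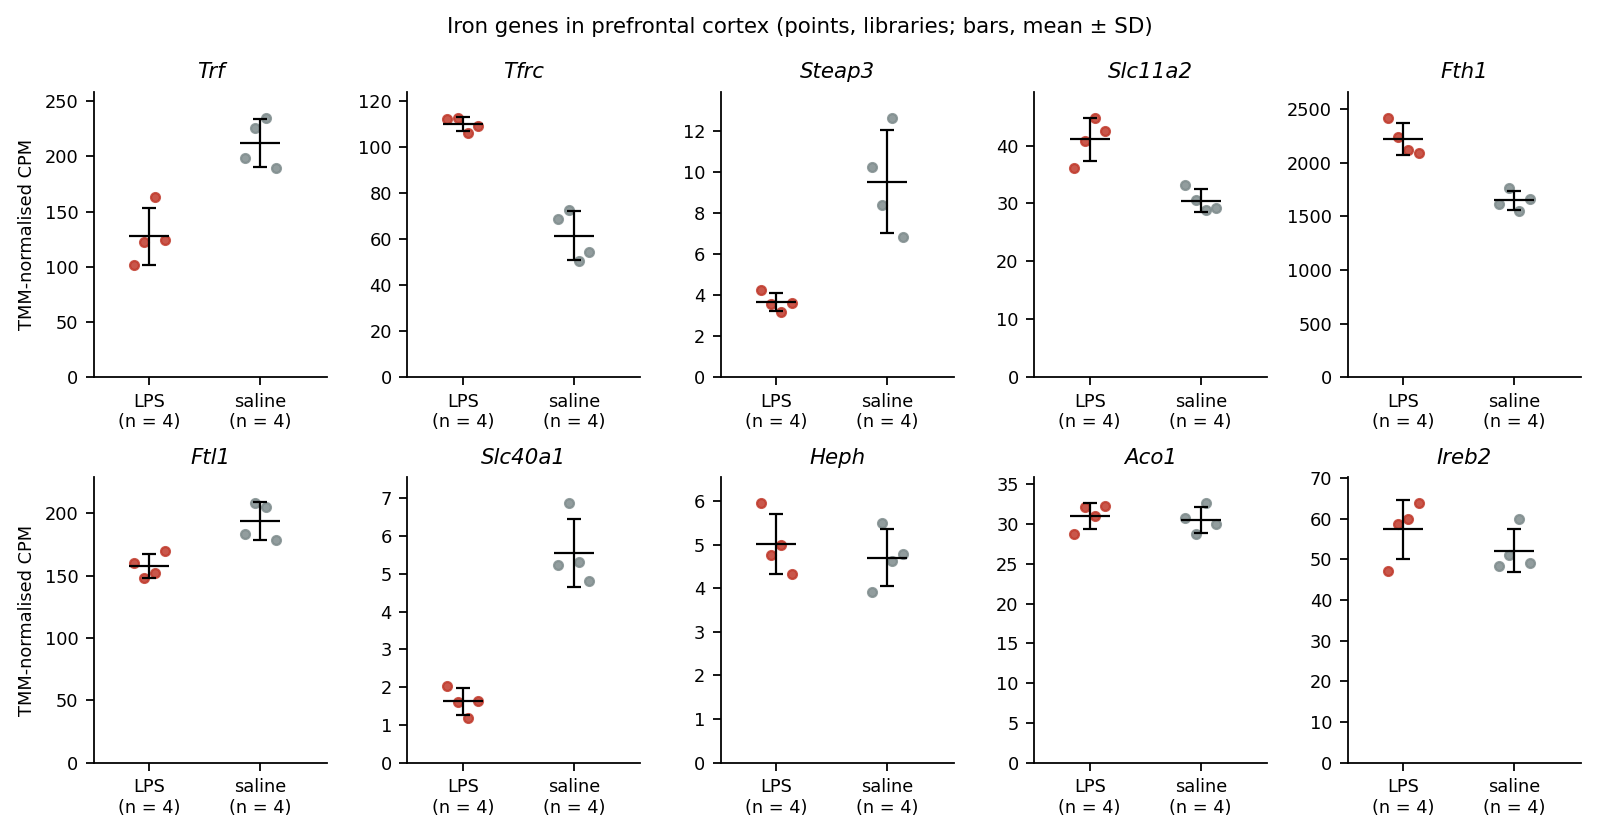
TMM-normalised CPM (vertical axes, from 0) of the 10 iron genes in the LPS (left, red, n = 4) and saline (right, grey, n = 4) libraries of prefrontal cortex, with 1 point a library and bars for the mean ± SD. The 4 LPS points lie above all saline points for Tfrc, Slc11a2 and Fth1 and below them for Trf, Steap3, Ftl1 and Slc40a1, and the groups overlap for Heph, Aco1 and Ireb2.

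Tfrc (chr16:32608920-32632794, plus strand) encodes transferrin receptor 1, which takes up iron-loaded transferrin by endocytosis. It stood at 112.3, 112.9, 106.2 and 109.1 CPM in the LPS libraries, against 68.8, 72.7, 50.5 and 54.3 CPM in the saline libraries. All LPS libraries lay within a narrow band above every saline library, while the saline libraries formed a higher pair (1L and 3L) and a lower pair (6L and 8L, both with contradictory labels). Means were 110.1 ± 3.12 CPM with LPS and 61.6 ± 10.8 CPM with saline (SD, n = 4 each), a 1.79-fold rise (log2 fold change 0.84, SE 0.11, adjusted p = 0.000165).

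Trf (chr9:103204001-103230444, minus strand) encodes transferrin, the iron carrier, made in the brain mainly by oligodendrocytes and the choroid plexus. It stood at 101.4, 122.2, 163.4 and 124.2 CPM with LPS, against 198.7, 226.1, 235.2 and 189.8 CPM with saline. Library 5L was the highest of the LPS group and still lay below the lowest saline library. The mean was 127.8 ± 25.9 CPM with LPS and 212.4 ± 21.7 CPM with saline (log2 fold change -0.73, SE 0.13, adjusted p = 0.00103). Of 15 oligodendrocyte and myelin markers, 9 were lower and 1 (Myrf) was higher with LPS. Among all genes tested, 19.7% were lower and 21.5% were higher. The markers summed to 2810 to 3793 CPM with LPS and 3247 to 4293 CPM with saline. Library 5L had the highest sum of the LPS group too, but library 2L, the lowest in Trf, had the next highest sum (3262 CPM). In bulk tissue, fewer cells of a type and less RNA per cell cannot be told apart, and the part of oligodendrocyte RNA in the fall of Trf was not tested. None of the 15 markers was at 0.

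Steap3 (chr1:120190757-120272705, minus strand) encodes a ferric reductase of the endosome, best known from red cell precursors. It stood at 4.25, 3.59, 3.18 and 3.61 CPM with LPS, against 10.3, 8.38, 12.7 and 6.84 CPM with saline. Every LPS library was below the lowest saline library, and the saline libraries varied more. Means were 3.66 ± 0.440 CPM with LPS and 9.54 ± 2.51 CPM with saline (log2 fold change -1.38, SE 0.19, adjusted p = 0.00025).

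Slc11a2 (chr15:100387898-100425072, minus strand) encodes divalent metal transporter 1, which carries ferrous iron out of the endosome. It stood at 36.2, 40.8, 44.8 and 42.6 CPM with LPS, against 33.3, 30.6, 28.9 and 29.3 CPM with saline. The groups did not overlap, with library 2L lowest among LPS and library 1L highest among saline. Means were 41.1 ± 3.67 CPM with LPS and 30.5 ± 1.99 CPM with saline, a 1.35-fold rise (log2 fold change 0.43, SE 0.09, adjusted p = 0.00296). Within the uptake group, the receptor and the transporter were thus higher with LPS, and the carrier and the reductase were lower.

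The ferritin chains moved in opposite directions. Fth1 (chr19:9980598-9985098, plus strand) encodes the heavy chain, which oxidises ferrous iron, and had 2423, 2246, 2123 and 2094 CPM with LPS, against 1620, 1767, 1548 and 1667 CPM with saline. All LPS libraries were above all saline libraries, with means of 2221 ± 149.7 and 1650 ± 91.6 CPM (SD, n = 4 each, LPS and saline), a 1.35-fold rise (log2 fold change 0.43, SE 0.07, adjusted p = 0.000638).

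Ftl1 (chr7:45457944-45459884, minus strand) encodes the light chain, which helps the iron core to form, and had 159.9, 148.3, 152.4 and 169.9 CPM with LPS, against 183.0, 208.0, 205.2 and 178.9 CPM with saline. The highest LPS library, 7L, lay a little below the lowest saline library, 8L. Means were 157.6 ± 9.52 CPM with LPS and 193.8 ± 14.9 CPM with saline (log2 fold change -0.30, SE 0.07, adjusted p = 0.00801). Over the 4 libraries whose labels agreed, the calls of both chains were lost, with log2 fold changes of 0.31 for Fth1 (adjusted p = 0.0875) and -0.29 for Ftl1 (adjusted p = 0.0874). Ferritin copies with symbols starting in Fth or Ftl were given few counts. The pseudogene Ftl1-ps1 had 17 to 35 counts a library, Ftl1-ps2 had 2 to 7, and Fth-ps2 and Fth-ps3 had 0. Copies under other names were not searched. How reads shared with such copies were counted is not given in the sources used here, so the ferritin counts carry that uncertainty.

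The ratio of Fth1 to Ftl1 counts, given without a test since it is formed from the genes themselves, was 15.1, 15.1, 13.9 and 12.3 with LPS and 8.85, 8.49, 7.54 and 9.32 with saline. The groups were apart, with means of 14.1 ± 1.34 with LPS and 8.55 ± 0.751 with saline. Summed over both chains, ferritin messages stood at 2379 ± 148.2 CPM with LPS and 1844 ± 95.1 CPM with saline. Heavy chain thus made up most of the ferritin reads in every library.

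**Figure D2:**
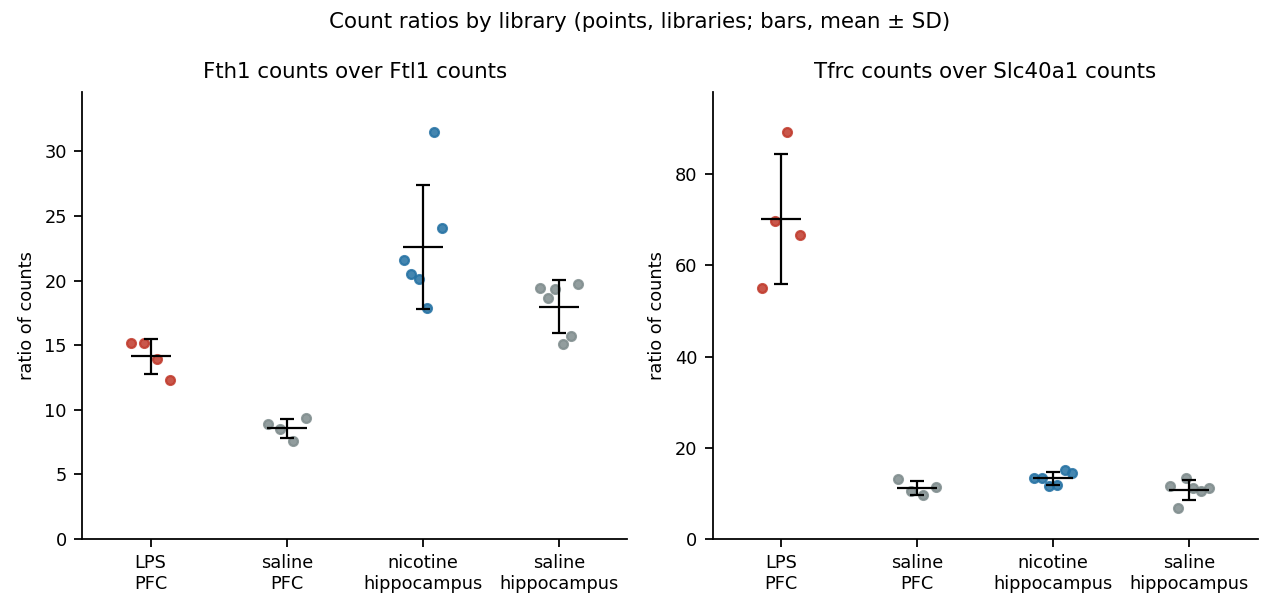
Ratio of Fth1 to Ftl1 counts (left panel) and of Tfrc to Slc40a1 counts (right panel) on linear axes from 0, with 1 point a library and bars for the mean ± SD, in LPS and saline libraries of prefrontal cortex (PFC, n = 4 each) and nicotine and saline libraries of hippocampus (n = 6 each). In prefrontal cortex the Fth1 to Ftl1 ratio was 12.3 to 15.1 with LPS and 7.54 to 9.32 with saline, and the Tfrc to Slc40a1 ratio was 55.1 to 89.2 with LPS and 9.53 to 13.2 with saline.

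Slc40a1 (chr1:45908068-45926523, minus strand) encodes ferroportin, the exporter of cellular iron, and had the largest log2 fold change of the 10 genes. It stood at 2.04, 1.62, 1.19 and 1.64 CPM with LPS, against 5.23, 6.87, 5.30 and 4.82 CPM with saline. The highest LPS library was far below the lowest saline library. Means were 1.62 ± 0.347 CPM with LPS and 5.56 ± 0.900 CPM with saline, so that LPS libraries had 0.293 times the saline level (log2 fold change -1.77, SE 0.20, adjusted p = 6.5e-05).

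Ferroportin is made by macrophages, endothelial cells and glia, and some markers of these cells also passed the test with LPS. The share of all genes tested was 21.5% higher and 19.7% lower. Of 10 homeostatic microglia markers, 8 were lower and 0 were higher with LPS, with summed levels of 277.2 to 332.1 CPM with LPS and 471.8 to 499.4 CPM with saline. Of 8 border macrophage markers tested, 3 (Mrc1, Pf4 and Cbr2) were lower and 1 (Siglec1) was higher, with sums of 17.2 to 33.1 CPM with LPS and 20.5 to 26.7 CPM with saline. Of 10 endothelial markers, 4 were higher and 2 were lower, with sums of 323.1 to 366.8 CPM with LPS and 263.5 to 338.3 CPM with saline. Of 10 astrocyte markers, 3 were higher and 3 were lower, with sums of 4323 to 5396 CPM with LPS and 4745 to 5062 CPM with saline. The oligodendrocyte markers, given with Trf above, were mostly lower. None of these markers was at 0, and their part in the fall of Slc40a1 was not tested. The ratio of Tfrc to Slc40a1 counts, a description of uptake against export messages with no test, was 70.2 ± 14.2 with LPS and 11.1 ± 1.52 with saline.

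Red blood cells, a further source of iron-gene messages, gave little RNA to either group. Their markers summed to 3.03 to 9.67 CPM with LPS and 11.4 to 27.4 CPM with saline, with 3 of 5 tested markers (Hba-a1, Hbb-bs and Hbb-bt) lower. Neutrophil and leukocyte markers summed to 5.77 to 11.6 CPM with LPS and 2.23 to 5.03 CPM with saline, with 2 of 4 tested markers (S100a8 and Ngp) higher. Only 5 of 10 red blood cell markers and 4 of 12 neutrophil and leukocyte markers were tested. Genes this low can pass the filter on low counts through 1 group alone, which limits both counts. Of all genes tested, 21.5% were higher and 19.7% lower. The part of these cells in the changes of Steap3 and of the other iron genes was not tested.

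Heph (chrX:96455359-96574485, plus strand) encodes hephaestin, the ferroxidase that works beside ferroportin. It stood at 5.01 ± 0.687 CPM with LPS and 4.71 ± 0.644 CPM with saline, with a 95% confidence interval of the log2 fold change from -0.26 to 0.44 (adjusted p = 0.679). The groups overlapped, with 4.33 to 5.95 CPM with LPS and 3.92 to 5.50 CPM with saline.

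Aco1 (chr4:40143081-40198338, plus strand) encodes iron regulatory protein 1, which is cytosolic aconitase when it carries an iron-sulphur cluster. It stood at 31.0 ± 1.62 CPM with LPS and 30.5 ± 1.64 CPM with saline (log2 fold change 0.02, 95% confidence interval -0.15 to 0.20, adjusted p = 0.835). Ireb2 (chr9:54863789-54912530, plus strand) encodes iron regulatory protein 2, which is degraded when iron is plentiful. It stood at 57.4 ± 7.17 CPM with LPS and 52.1 ± 5.29 CPM with saline (log2 fold change 0.14, 95% confidence interval -0.09 to 0.37, adjusted p = 0.306). Library 2L, at 47.1 CPM, was the lowest of all 8 for Ireb2. Without it Ireb2 passed the test (log2 fold change 0.22, adjusted p = 0.0484), as it did over the 4 libraries with agreeing labels (0.30, adjusted p = 0.0482). Of the 4 genes with a regular iron-responsive element, Tfrc and Fth1 rose, and Ftl1 and Slc40a1 fell. Elements in a 5′ UTR act on translation, which message levels do not show, so regulation through the elements was not tested.

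**Figure D3:**
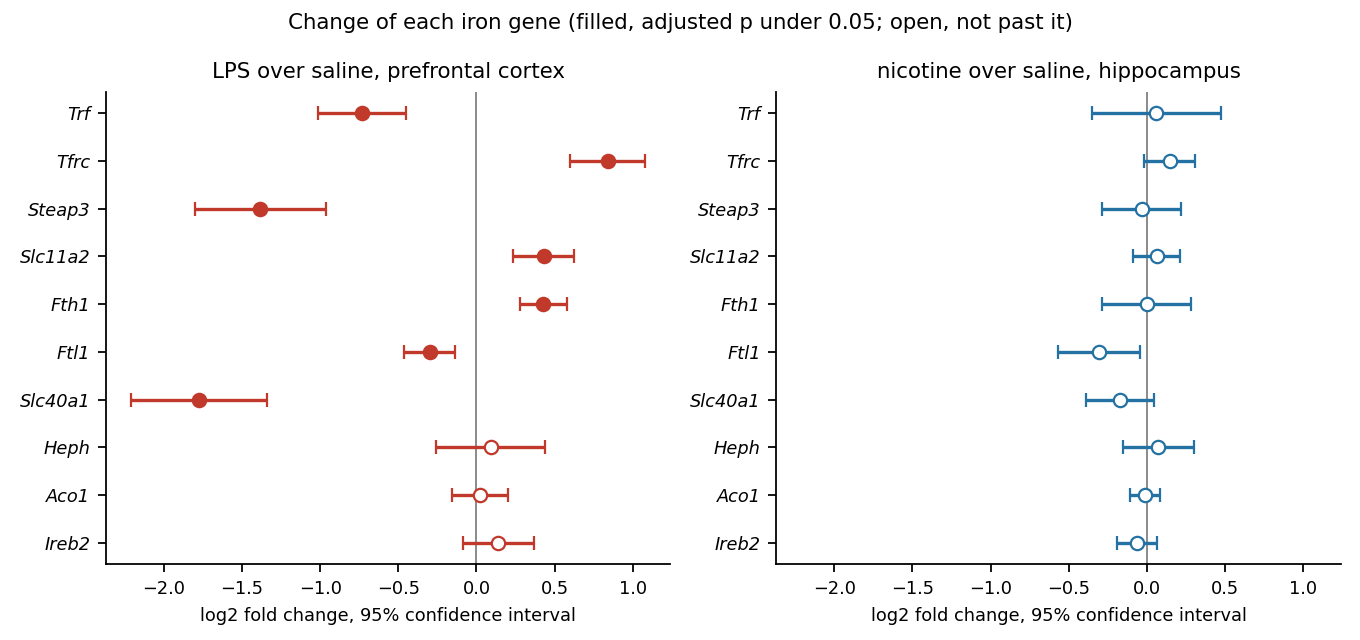
Log2 fold change (horizontal axis) of each iron gene with its 95% confidence interval, for LPS over saline in prefrontal cortex (left) and nicotine over saline in hippocampus (right), with filled points past an adjusted p of 0.05. In prefrontal cortex the changes run from -1.77 (Slc40a1) to 0.84 (Tfrc) and 7 points are filled, while in hippocampus all points lie between -0.31 (Ftl1) and 0.15 (Tfrc) and none is filled.

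Other genes of iron handling were read from the same fit in prefrontal cortex. In that fit 41.2% of all genes tested passed, 21.5% higher and 19.7% lower. The counts of each iron list that follow stand beside these shares, and no list was tested for an excess over them. Among 11 tested genes of uptake and iron reduction, 4 rose, 1 fell and 6 did not pass. Steap4, a metalloreductase induced by inflammatory signals, stood at 10.6 ± 2.62 CPM with LPS and 0.410 ± 0.095 CPM with saline (log2 fold change 4.68, adjusted p = 3.1e-07). Scara5, a receptor for serum ferritin, rose by 2.19 on the log2 scale (adjusted p = 0.000511). Slc39a14, a carrier of iron that is not bound to transferrin, rose by 0.61 (adjusted p = 0.0013), and Tfr2, the second transferrin receptor, by 0.94 (adjusted p = 0.00529). The gene that fell was Snx3, an endosomal sorting nexin (log2 fold change -0.20, adjusted p = 0.0306), named after its value was seen. The endosomal reductase Steap3 and its relative Steap4 thus moved in opposite directions.

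The multicopper ferroxidases also differed among themselves. Cp, ceruloplasmin, which loads exported iron onto transferrin and is an acute-phase protein, stood at 64.4, 94.7, 60.6 and 47.1 CPM with LPS, against 13.4, 16.5, 15.7 and 17.3 CPM with saline. The groups were far apart (log2 fold change 2.08, SE 0.18, adjusted p = 1.26e-05). Hephl1, a relative of hephaestin, fell by 2.43 on the log2 scale at a low level, with 0.355 ± 0.210 CPM with LPS and 1.92 ± 0.109 CPM with saline (adjusted p = 0.000252). Hephl1 had 57 counts with LPS and 317 with saline. A gene this low can pass the filter on low counts through 1 group alone, which limits its call. Of the ferroxidases, Cp was thus higher and Heph did not pass the test, while Hephl1 was lower within that limit.

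Of 5 tested storage and chaperone genes, 0 rose, 1 fell and 4 did not pass. Glrx3, a glutaredoxin that carries iron-sulphur clusters, fell by 0.36 on the log2 scale (adjusted p = 0.0063). Ncoa4, which takes ferritin to the lysosome for breakdown, stood at 40.2 ± 2.85 CPM with LPS and 37.6 ± 2.09 CPM with saline (log2 fold change 0.10, adjusted p = 0.369). Mitochondrial ferritin, Ftmt, had 0 counts in all libraries of both tissues.

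Of 5 iron- and oxygen-sensing genes, 2 rose, 1 fell and 2 did not pass. Fbxl5, the ubiquitin ligase part that senses iron and targets iron regulatory protein 2, fell by 0.28 on the log2 scale (adjusted p = 0.0217). Hif1a, an oxygen-regulated transcription factor, rose by 0.45 (adjusted p = 0.00741), and Egln2, an iron-dependent prolyl hydroxylase, rose by 0.34 (adjusted p = 0.00341).

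Of 17 tested genes of the hepcidin axis, 6 rose, 2 fell and 9 did not pass. Bmp6, which signals iron load to hepcidin in liver, stood at 6.90 ± 1.31 CPM with LPS and 18.9 ± 5.06 CPM with saline (log2 fold change -1.45, adjusted p = 0.000273). Smad7, an inhibitor of the same pathway, fell by 1.01 (adjusted p = 9.29e-05), and the receptor Acvr2a rose by 0.64 (adjusted p = 0.000291). Hamp itself was close to the limit of detection and was not tested, with 3, 6, 2 and 3 counts in the LPS libraries and 1, 0, 0 and 1 in the saline libraries. The ratio of its summed counts, 14 with LPS and 2 with saline, was 7.15 per unit of depth with an exact 95% interval of 1.64 to 64.8, which covers counting error only.

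Of 21 tested haem genes, 7 rose, 4 fell and 10 did not pass. Hmox1, haem oxygenase 1, which frees iron from haem, stood at 10.2 ± 2.09 CPM with LPS and 4.86 ± 0.411 CPM with saline (log2 fold change 1.07, adjusted p = 0.000471). Uros, an enzyme of haem synthesis, fell by 0.66 (adjusted p = 0.000724). Slc46a1, a folate carrier that also takes up haem, fell by 0.97 (adjusted p = 0.00184). The others that fell, named after their values were seen, were Urod (-0.34) and Blvrb (-0.39), enzymes of haem synthesis and of haem breakdown. Of the 7 haem genes that rose, only Hmox1 is named here, so the named genes do not show the balance of the list.

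Of 17 tested mitochondrial genes, 1 rose, 3 fell and 13 did not pass. Slc25a28, mitoferrin 2, which brings iron into mitochondria, stood at 50.7 ± 6.08 CPM with LPS and 27.4 ± 0.994 CPM with saline (log2 fold change 0.89, adjusted p = 5.18e-05). Fdxr, ferredoxin reductase, fell by 0.45 (adjusted p = 0.0109). Cisd1 (mitoNEET), an iron-sulphur protein of the outer membrane, fell by 0.28 (adjusted p = 0.0289) and was named after its value was seen.

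Of 4 tested iron-withholding genes, 2 rose and 2 did not pass. Lcn2, which binds bacterial iron carriers, rose by 6.17 on the log2 scale (SE 0.76, adjusted p = 0.000122), with means of 298.0 ± 48.1 CPM with LPS and 4.12 ± 6.27 CPM with saline. Slc11a1, which removes iron from phagosomes, rose by 1.07 (adjusted p = 0.00252).

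Nicotine left no iron gene past the test in hippocampus. By edgeR, 0 of 10 iron genes and 0% of the 18873 genes tested passed an adjusted p of 0.05. At an unadjusted p under 0.05 there were 1577 genes (8.36%), among them 1 of the 10 iron genes, Ftl1. By limma-voom 0 genes passed, and by DESeq2 15 genes passed, with 0 iron genes among them.

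Ftl1 had 99.4, 120.8 and 155.0 CPM as lowest, median and highest value with nicotine, against 130.0, 138.4 and 204.7 CPM with saline. The groups overlapped, with 4 of 6 nicotine libraries below the lowest saline library. Means were 121.3 ± 20.9 CPM with nicotine and 150.0 ± 28.1 CPM with saline (SD, n = 6 each), a log2 fold change of -0.31 (SE 0.12, adjusted p = 0.568 by edgeR). Tfrc was at 70.9, 74.9 and 82.7 CPM as lowest, median and highest with nicotine, against 55.2, 69.4 and 80.4 CPM with saline (log2 fold change 0.15, 95% confidence interval -0.02 to 0.31, adjusted p = 0.611). The groups overlapped, and the lowest value was that of saline library 2N.

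Fth1 ran from 2351 to 3347 CPM with nicotine (median 2479), against 2167 to 3820 CPM with saline (median 2576). Its 95% confidence interval on the log2 scale was -0.29 to 0.28. The ratio of Fth1 to Ftl1 counts was 17.9 to 31.5 with nicotine and 15.1 to 19.7 with saline, as a description. Slc40a1 stood at 5.81 ± 0.569 CPM with nicotine and 6.54 ± 0.814 CPM with saline (log2 fold change -0.17, 95% confidence interval -0.39 to 0.05). Slc11a2 stood at 42.7 ± 3.47 CPM with nicotine and 40.8 ± 3.85 CPM with saline (log2 fold change 0.06, 95% confidence interval -0.09 to 0.21).

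Steap3, Heph, Aco1 and Ireb2 lay close together in both groups. Steap3 averaged 7.21 ± 1.22 CPM with nicotine and 7.38 ± 0.836 CPM with saline. Heph averaged 7.52 ± 0.834 CPM with nicotine and 7.14 ± 0.916 CPM with saline. Aco1 averaged 29.2 ± 1.31 CPM with nicotine and 29.4 ± 0.742 CPM with saline, the narrowest interval of the 10 genes on the log2 scale (-0.11 to 0.09). Ireb2 averaged 55.8 ± 5.04 CPM with nicotine and 58.3 ± 2.72 CPM with saline. None of these differences passed an adjusted p of 0.05 in edgeR's test, which does not show that they are absent.

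Trf was the most variable of the 10 genes among saline libraries of hippocampus, with a coefficient of variation of 30.8%. It ran from 261.3 to 398.4 CPM with nicotine (median 282.1), against 129.8 to 398.9 CPM with saline (median 308.2), a log2 fold change of 0.06 (95% confidence interval -0.35 to 0.48). The low value was that of saline library 4N, whose oligodendrocyte and myelin markers also had the lowest sum, 2808 CPM against 4864 to 8695 CPM in the other saline libraries. Without 4N the log2 fold change of Trf was -0.09 (adjusted p = 0.874). The part of oligodendrocyte RNA in this was not tested.

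**Figure D4:**
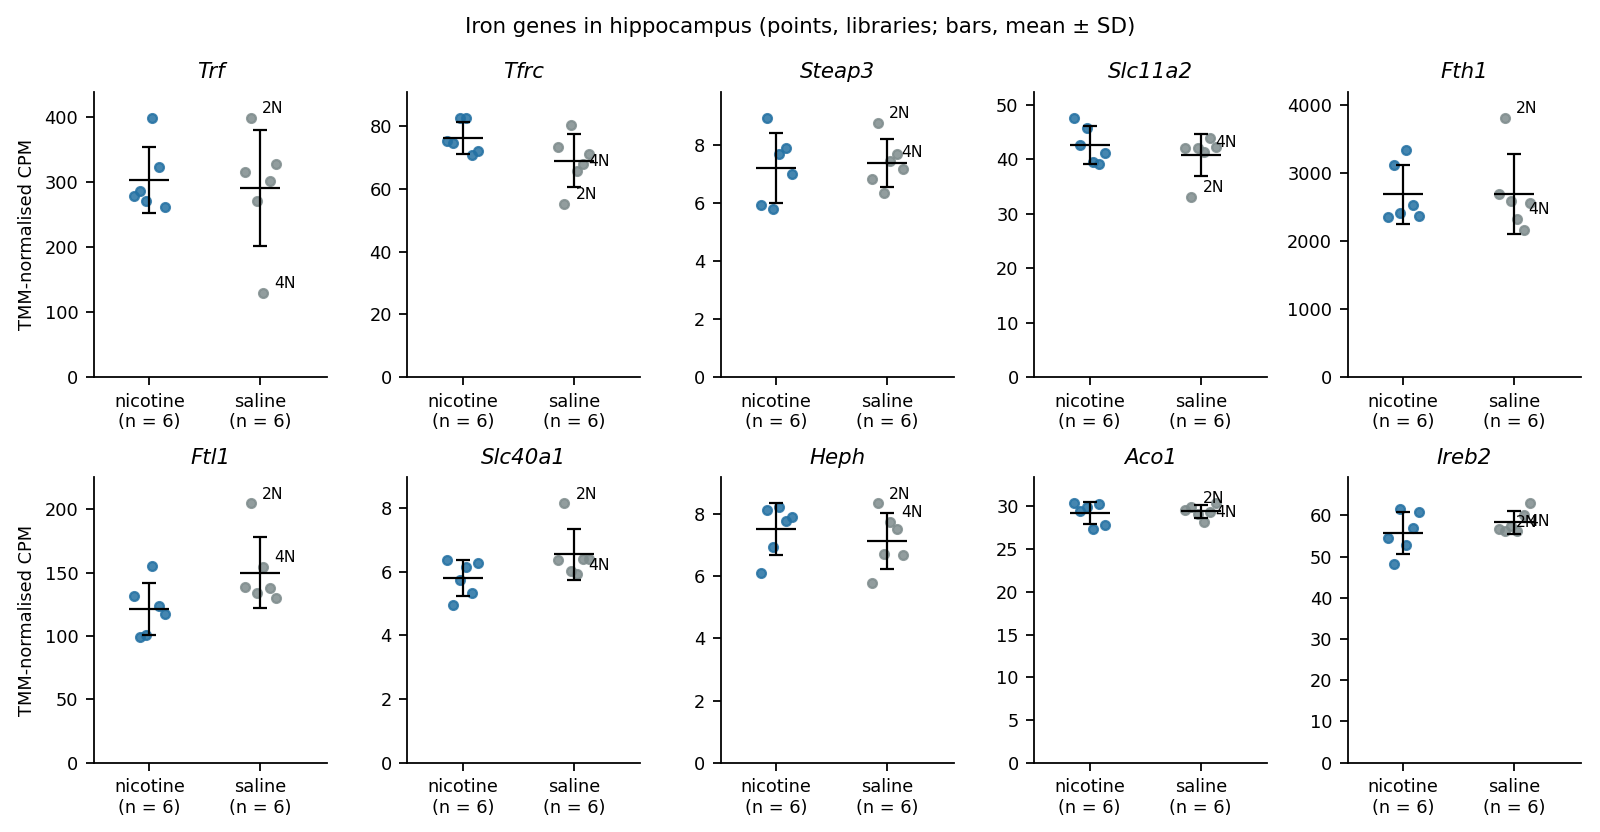
TMM-normalised CPM (vertical axes, from 0) of the 10 iron genes in the nicotine (left, blue, n = 6) and saline (right, grey, n = 6) libraries of hippocampus, with 1 point a library, bars for the mean ± SD and saline libraries 2N and 4N named. The groups overlap for all 10 genes, 2N is the highest for Fth1 (3820 CPM) and the lowest for Tfrc (55.2 CPM), and 4N is the lowest for Trf (129.8 CPM).

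Saline library 2N stood apart for several iron genes at once. It had the highest Fth1, Ftl1 (204.7 CPM) and Slc40a1 (8.15 CPM) and the lowest Tfrc and Slc11a2 (33.2 CPM) of the 12 hippocampal libraries. It also had the highest sum of oligodendrocyte markers (8695 CPM) and was among the 4 libraries above 1000 CPM of Ttr. Without 2N the log2 fold changes with nicotine were -0.20 for Ftl1, 0.12 for Fth1, 0.09 for Tfrc, -0.10 for Slc40a1, 0.0090 for Slc11a2, 0.17 for Trf, 0.12 for Heph and 0.02 for Steap3, and no iron gene passed. Without the 4 libraries high in Ttr, 0 iron genes passed too.

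Compared per kilobase of annotated exon, levels spanned a wide range, with Fth1 highest in all 4 groups. Fth1 averaged 640.4 ± 43.2 CPM per kb with LPS and 475.8 ± 26.5 with saline in prefrontal cortex, and 775.9 ± 125.0 with nicotine and 776.6 ± 168.2 with saline in hippocampus. In LPS libraries it was followed by Ftl1 (117.6 ± 7.08), Trf (38.5 ± 7.80) and Tfrc (17.8 ± 0.502). In saline libraries of prefrontal cortex the same order held, with Ftl1 at 144.6 ± 11.1, Trf at 64.0 ± 6.52 and Tfrc at 9.96 ± 1.75 CPM per kb. In hippocampus the ranges of Ftl1 and Trf overlapped in both groups, with Trf at 91.3 ± 15.5 and Ftl1 at 90.6 ± 15.6 CPM per kb with nicotine, and Ftl1 at 111.9 ± 21.0 and Trf at 87.5 ± 27.0 with saline.

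Aco1, Ireb2 and Slc11a2 formed a middle group. In LPS libraries their ranges overlapped, at 6.91 ± 0.361, 6.05 ± 0.757 and 6.47 ± 0.577 CPM per kb. In saline libraries of prefrontal cortex Aco1 (6.79 ± 0.364) lay above Ireb2 (5.50 ± 0.558), which overlapped with Slc11a2 (4.80 ± 0.313). At the bottom, Steap3, Heph and Slc40a1 averaged 0.640 ± 0.077, 0.654 ± 0.090 and 0.180 ± 0.039 CPM per kb with LPS, and 1.67 ± 0.439, 0.614 ± 0.084 and 0.618 ± 0.100 with saline. By this exon length, Slc40a1 was thus below Heph without overlap with LPS, while with saline the ranges of this exporter pair overlapped.

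**Figure D5:**
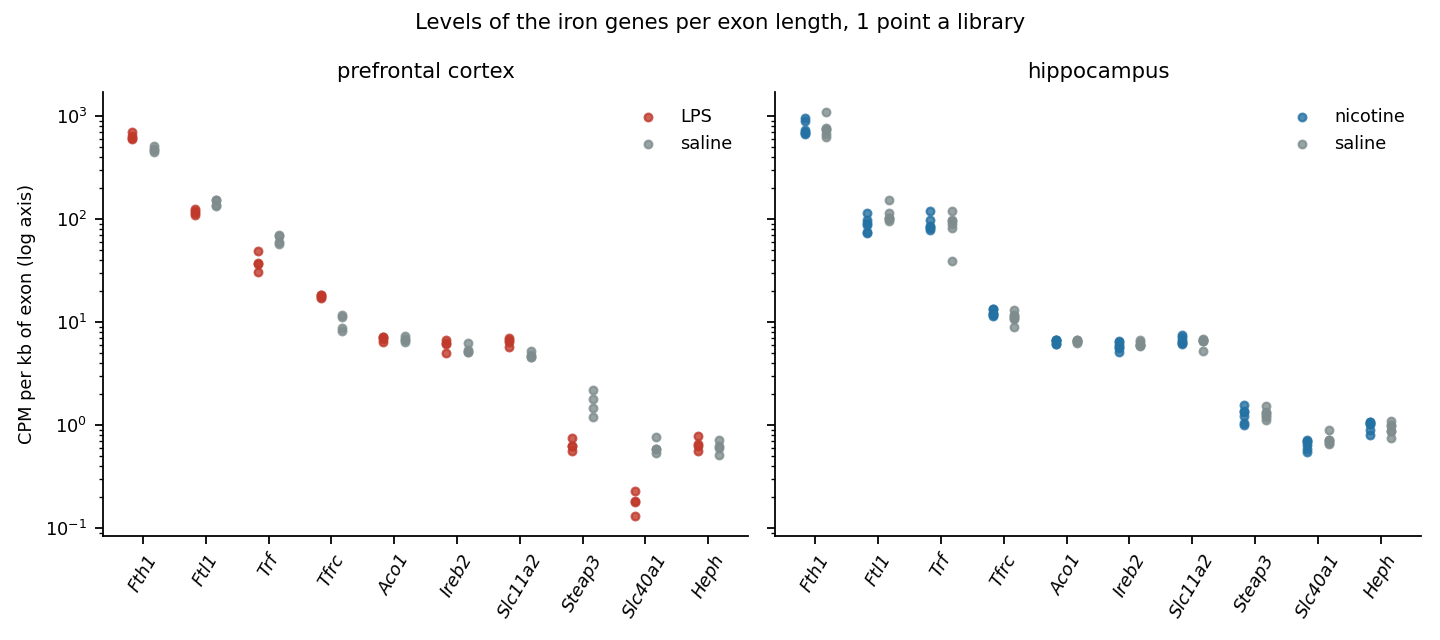
CPM per kb of annotated exon on a log axis, with 1 point a library, for LPS (red) and saline (grey) in prefrontal cortex (left) and nicotine (blue) and saline (grey) in hippocampus (right), genes ordered by their mean in the saline libraries of prefrontal cortex. Fth1 is highest in every library, and Slc40a1 is lowest with LPS, at 0.132 to 0.227 CPM per kb.

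Exon length enters these levels, and for Fth1 the union of annotated exons (3469 bases) is far longer than its first-numbered transcript (929 bases). By the length of that transcript, a choice made after seeing the data, Fth1 averaged 2391 ± 161.1 CPM per kb with LPS and 1777 ± 98.8 with saline in prefrontal cortex. The same lengths put Slc11a2 above Ireb2 and Aco1 in all 4 groups, so the order within the middle group depends on the length used. So does the order of Slc40a1 and Heph in saline libraries of prefrontal cortex. There the transcript lengths put Slc40a1 (1.43 to 2.04 CPM per kb) above Heph (0.827 to 1.16) without overlap. With LPS, Slc40a1 (0.353 to 0.605) stayed below Heph (0.912 to 1.25). Fth1, Ftl1, Trf and Tfrc kept the first 4 places in LPS and in saline libraries of prefrontal cortex under either length.

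Across the 12 hippocampal libraries, the genes whose log2 CPM was most like that of each LPS-responsive iron gene were found among all genes tested, as a description without a p-value. These 12 points mix nicotine and saline libraries and share each library's tissue makeup. Trf was most like Cldn11 (Pearson r 0.970, Spearman rho 0.825), a tight-junction gene of myelin, followed by Mal (0.969, rho 0.790), another myelin gene. Without the 2 libraries farthest from the median of Trf, 4N and 2N, r was 0.849 with Cldn11 and 0.808 with Mal. Ftl1 was most like Eif3m (r 0.985, rho 0.944), a translation initiation factor subunit, with Rpl9, a ribosomal protein gene, also among its 5 closest (r 0.975, rho 0.937). Without 2N and 8N these values were 0.958 and 0.929.

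Fth1 was most like Cmtm5 (r 0.949, rho 0.832, 0.831 without 2N and 10N). Ftl1 was not among the 5 closest genes of Fth1, nor Fth1 among those of Ftl1. Tfrc was most like Cntnap2 (r 0.938, rho 0.909, 0.891 without 2N and 10N), a neuronal cell adhesion gene. Steap3 was most like Fmo1 (r 0.943, rho 0.958, 0.972 without 9N and 7N). Slc40a1 was most like Zfp101 (r 0.933, rho 0.734, 0.672 without 2N and 8N), and Slc11a2 like Zbtb49 (r 0.929, rho 0.790, 0.806 without 2N and 7N).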

How the data were processed

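Poly(A) RNA libraries were prepared from TRIzol extracts (Universal Plus mRNA-Seq with NuQuant), per the labels' protocols. The deposited values are raw counts per gene and were not normalized by the authors. The submitters' processing notes name fastp, STAR, featureCounts, DESeq2 and the mm10 build, without versions or roles. Which annotation and strand setting were used is not stated, so overlapping or near-identical genes could share reads. Neither the route of nicotine nor the sex of the mice used for hippocampus appears in the labels.

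The members and lists were chosen with earlier results of these data known. Of 57180 hippocampal identifiers, 51884 matched a symbol, and 120 of 55487 prefrontal cortex symbols were repeated. Libraries of a group differed by more than sampling noise (lowest chi-square per degree of freedom 11.0). The labels call libraries biological replicates and name no animals, so p-values cover the spread between libraries, which may be partly technical. Intervals of count ratios cover counting error only.

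The 2 tables were fitted separately in R 4.3.3 by edgeR 4.0.16 (TMM factors, filterByExpr, quasi-likelihood F-test), p-values were adjusted by Benjamini-Hochberg over all genes tested, and the threshold was 0.05. SE is the log2 fold change divided by the root of F. For a typical gene the 95% confidence interval reached 0.295 on the log2 scale to each side for LPS and 0.222 for nicotine (medians). Steps were tested on simulated data.

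UTRs, lengths and positions came from GENCODE vM21, an annotation of mm10. Named genes were the 10 members, up to 3 genes with the smallest p past the threshold in each other iron list, 10 genes fixed by name and genes among the 5 most like each called member, of which not all are given. A few genes chosen in this way are not reported in the text. Alternatives were DESeq2 1.42.0, limma-voom (limma 3.58.1), RLE and upper-quartile factors, no filter, a filter of 1 CPM, each library left out, a replicate block, groupings by label, marker covariates, hippocampus without libraries high in Ttr and, added after seeing the data, the length of the first-numbered transcript.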

Additional observations from a re-analysis of the deposited data

Results flagged for a closer look

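In 7 of 90 groups checked, the highest or lowest library lay apart from the rest by Dixon's 95% limit, which chance alone passes in about 1 group in 20. Of these, 4 concern the same saline library of hippocampus, 2N. It had 3820 CPM of Fth1 against 2167 to 2693 CPM in the other saline libraries, 204.7 CPM of Ftl1 against 130.0 to 154.8 CPM, 8.15 CPM of Slc40a1 against 5.93 to 6.41 CPM and 33.2 CPM of Slc11a2 against 41.4 to 43.9 CPM. In prefrontal cortex, saline library 8L had 13.5 CPM of Lcn2 against 0.676 to 1.39 CPM in the other saline libraries. LPS library 2L had 6.12 CPM of Slc46a1 against 3.47 to 3.89 CPM in the other LPS libraries, and saline library 3L had 74.7 CPM of Glrx3 against 59.2 to 60.3 CPM.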

How the results depend on the processing

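Across DESeq2, limma-voom, other factors, filters, the striatal covariate, the replicate block and each library left out, 7 or 8 of the 10 iron genes passed with LPS, and over the 4 libraries with agreeing labels 6 passed, 3 higher and 3 lower. With each library left out, 5703 to 8481 of all genes passed, and with agreeing labels 5690 of 17883 genes tested passed. Grouped by title, 0 genes and 0 iron genes passed, and Tfrc (-0.20), Trf (0.14), Fth1 (-0.12), Ftl1 (0.015) and Heph (-0.10) reversed on the log2 scale. Grouping by title exchanges 4 of the 8 libraries. Heph was -0.025 with agreeing labels. With each library left out, log2 changes with LPS ran from -0.0038 to 0.16 for Heph and -0.015 to 0.059 for Aco1, neither past the threshold.

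With nicotine, 15 genes passed by DESeq2, 1 without library 11N and 1 without the libraries above 1000 CPM of Ttr, and 0 to 1 over all single libraries left out, with 0 iron genes each time; the cause was not tested. The log2 change of Fth1, close to 0, turned positive by DESeq2 (0.00043), limma-voom (0.0083), the replicate block (0.0081), the choroid plexus covariate (0.0040) and without the libraries high in Ttr (0.012), where Aco1 was 0.0044. With single libraries left out it ran from -0.073 to 0.12 for Fth1, -0.089 to 0.17 for Trf, -0.022 to 0.0073 for Aco1 and -0.10 to 0.021 for Steap3.

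Same-numbered libraries had correlations of -0.151 to -0.025 in prefrontal cortex and -0.161 to 0.414 in hippocampus, so the numbers were not taken as pairs. With the replicate block, 6064 genes passed with LPS (3144 higher, 2920 lower), with 3 iron genes higher and 4 lower, and 0 with nicotine. Of all treated libraries, only 11N correlated best with the saline library of its own number, 5N (0.414).

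Per length, the mean Fth1 to Ftl1 ratio by union exon length was 5.46 with LPS and 3.30 with saline in prefrontal cortex, and 8.73 with nicotine and 6.95 with saline in hippocampus. By first-numbered transcript it was 14.7 with LPS, 8.91 with saline, 23.6 with nicotine and 18.7 with saline, since the union of Fth1 exons is longer. Slc40a1, at 1.62 CPM with LPS, and Hamp rest on few counts.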

Other observations

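In hippocampus, the other iron genes gave 0 calls with nicotine in any of the 8 lists by edgeR, and 5 of their tested genes had an unadjusted p under 0.05. These were 2 of 20 tested haem genes, 2 of 17 mitochondrial genes and 1 of 4 iron-withholding genes. Of all genes tested, 8.36% had an unadjusted p under 0.05, and no list was tested for an excess over that share. Among the genes fixed by name or by rule, Lcn2 averaged 0.872 ± 0.647 CPM with nicotine and 0.141 ± 0.122 CPM with saline (SD, n = 6 each). Its log2 fold change was 2.66 (SE 0.64) with an adjusted p of 0.555 by edgeR, and the groups overlapped. That is the smallest adjusted p of the hippocampal table, but genes with smaller p share it, since Lcn2 ranked 19 by p. Lcn2 had 311 counts with nicotine and 47 with saline. A gene this low can pass the filter on low counts largely through 1 group, which limits this value. Fdxr, ferredoxin reductase, averaged 8.90 ± 1.27 CPM with nicotine and 10.3 ± 0.620 CPM with saline (log2 fold change -0.21, SE 0.09, adjusted p = 0.587). Cp averaged 13.6 ± 2.97 CPM with nicotine and 12.2 ± 3.38 CPM with saline, and Hmox1 averaged 4.78 ± 0.734 CPM with nicotine and 5.05 ± 0.576 CPM with saline, neither past the threshold. Steap4 and Hamp were below the filter in hippocampus and were not tested.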
